A study of Mus musculus with 23 samples.

Results

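The 10 genes described here encode the proteins that fuse, divide and remove mitochondria: Mfn1, Mfn2 and Opa1 for fusion, Dnm1l, Fis1 and Mief1 for fission, and Bnip3, Bnip3l, Fundc1 and Pink1 for mitophagy. They were chosen by symbol, with no threshold on a measured value but with earlier results of these data known. Each has 1 row among the 12831 genes of the quadriceps table and 1 among the 16962 genes of the epididymal fat table. RNA-seq libraries were made from male C57BL/6J mice, 8 weeks old at surgery, with 1 library per mouse in each tissue, and the sources used here do not say whether 1 mouse gave both tissues. The no tumor mice were sham controls. KPC mice carried orthotopic pancreatic tumors grown from 1 clone of a cell line derived from a pancreatic tumor of a genetically engineered KPC mouse, whose tumor-driving alleles are switched on by Pdx1-Cre, and this clone had received a CRISPR/Cas9 plasmid with a null guide RNA. KPC IL6KO mice carried tumors from 1 clone of the same line with its Il6 gene edited. The mice themselves were not edited, so Il6 in host muscle and fat is intact and gives no check of the labels. All mice were killed when any group reached the wasting limit. Quadriceps had 3 no tumor, 4 KPC and 4 KPC IL6KO libraries, and epididymal fat had 4 of each.

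Mitochondria in muscle form a network that is remodeled all the time. The mitofusins Mfn1 and Mfn2 join outer membranes and Opa1 joins inner membranes, whereas the dynamin-related GTPase encoded by Dnm1l is recruited to the outer membrane, with Fis1 and Mief1 among its partners there, to cut the organelle. Damaged or surplus mitochondria are then taken up by autophagosomes, either through receptors in the outer membrane that bind LC3 proteins directly (Bnip3, Bnip3l and Fundc1) or through ubiquitin that the kinase Pink1 and the ligase Parkin place on the surface. In wasting muscle this system is studied beside the ubiquitin-proteasome and autophagy genes that FoxO factors control, and Bnip3 is a known target of both FoxO3 and hypoxia-inducible factor.

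The libraries held 19259763 to 74907810 assigned reads in quadriceps and 26306377 to 56308545 in fat, and the fewest reads on any of the 10 genes in any library were 337, on Fundc1. Levels are given as CPM, counts per 1000000 of the TMM-normalized library, and a gene was called when edgeR's quasi-likelihood test gave an FDR of at most 0.05 and a fold change of at least 1.5. The skeletal muscle identity of the quadriceps libraries was clear: 6 of 6 muscle markers were present and summed to 113116 to 131007 CPM in KPC, 145635 to 181733 in no tumor and 166991 to 182593 in KPC IL6KO mice. These are bulk samples, in which fewer cells of a type and less RNA per cell cannot be told apart. KPC quadriceps differed from no tumor quadriceps at most genes, so the shares given beside each count are needed to read it. Of the called genes, 48.0% were higher in KPC than in no tumor mice, a share of 30.4% with upper quartile scaling, which moves the median log2 fold change of all genes from -0.03 to -0.36, and of 36.8% with total count scaling (median -0.24). Against KPC IL6KO mice the shares were 49.1%, 30.9% and 41.6%.

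Bnip3 had the largest difference of the 10 genes, and the stretch before its start is therefore printed. Of the 10 genes, 9 had an entry in the RefSeq promoter table (GRCm38.p6). The 250 bases upstream of Bnip3, at chr7:138909507-138909756 on the minus strand, have a GC content of 72.4% and hold the palindrome CACGTG, in capitals. These letters are an E-box, the motif searched for TFEB. They also contain ACGTG, the form of the hypoxia response element core that was searched, on both strands, 107 and 108 bases before the start.
Bnip3: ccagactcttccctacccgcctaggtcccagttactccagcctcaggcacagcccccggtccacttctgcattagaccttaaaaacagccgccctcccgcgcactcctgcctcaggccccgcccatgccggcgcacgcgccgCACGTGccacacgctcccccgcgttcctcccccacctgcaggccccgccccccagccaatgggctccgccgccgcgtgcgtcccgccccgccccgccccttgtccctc
Both strands of 250 bases before each start were searched for exact letters only, so other forms of each motif were not counted. Of 32851 such windows genome-wide, 16.6% held ACGTG and 6.02% held CACGTG, a match of the second always being one of the first. Among the other genes only 1 of the 3 windows of Mfn2 held ACGTG, 39 bases before the start. The FoxO motif GTAAACA, in 3.17% of windows, and AAGGTCA, the motif of estrogen-related receptors, in 4.08%, were in none of the members' windows. These matches describe the letters in the window and say nothing about binding.

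In quadriceps the mitophagy receptors Bnip3 and Bnip3l rose most in KPC mice, followed by the fission adaptor Mief1, and the receptor Fundc1 fell, whereas no fusion gene was called. Compared with no tumor mice, 3 of the 10 genes were called up and 1 down, against 26.7% of all genes called up and 29.0% called down. An FDR of at most 0.05 at any fold was reached by 6 of 10, against 67.6% of all genes, and the same 6 had CPM values that did not overlap between KPC and no tumor mice, against 65.3% of all genes. With 10 genes, these counts do not set the group apart from the whole table, so they are given as a description only. The median log2 fold change of the 10 genes was 0.34, and that of all genes was -0.03.

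**Figure D1:**
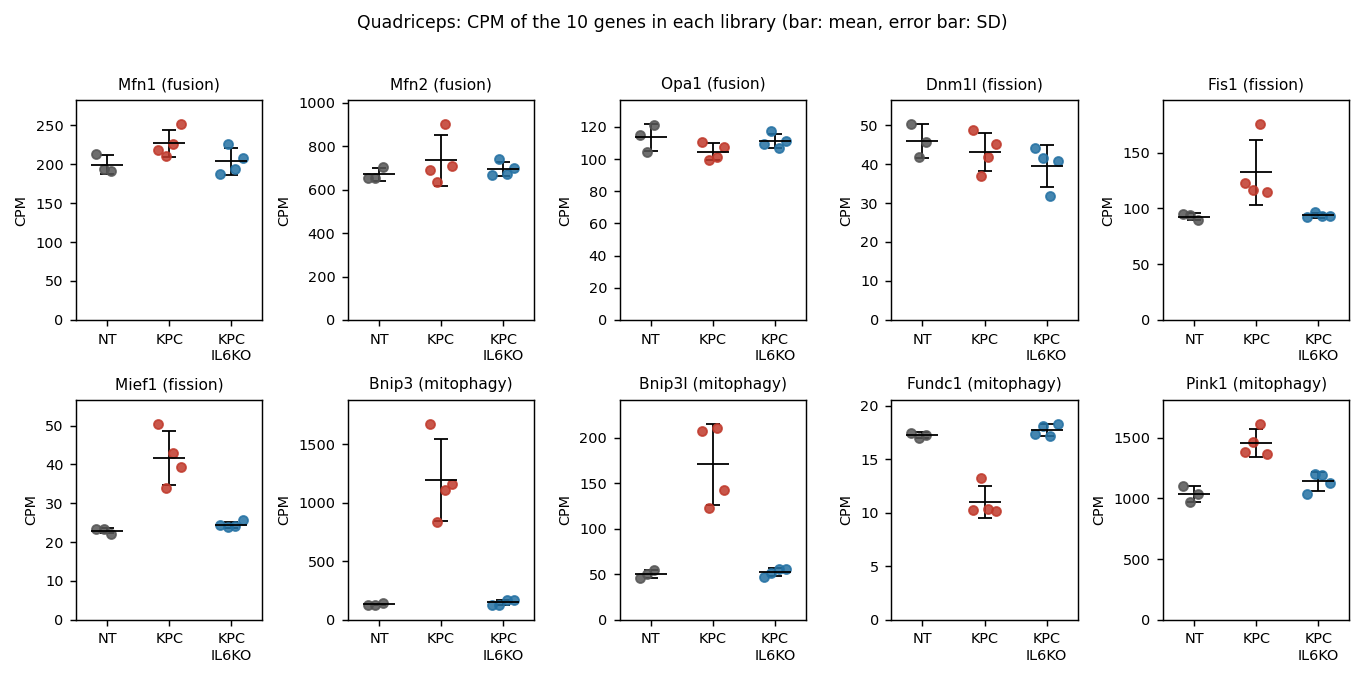
CPM of each of the 10 genes (y axis, from 0) in the quadriceps libraries of no tumor (NT, n = 3), KPC (n = 4) and KPC IL6KO (n = 4) mice, 1 point per library, with the mean as a bar and the SD as the error bar. The KPC points lie apart from both other groups for Fis1, Mief1, Bnip3, Bnip3l, Fundc1 and Pink1, and the groups overlap for the fusion genes and Dnm1l.

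Bnip3, a receptor known to be induced by hypoxia and fasting, lies at chr7:138890836-138909519 (GRCm38, minus strand). Its level was 126, 125 and 139 CPM in the no tumor libraries, 1675, 838, 1108 and 1163 CPM in the KPC libraries and 129.7, 128, 168 and 165 CPM in the KPC IL6KO libraries. Each KPC library was thus several times above every other library, while no tumor and KPC IL6KO libraries were mixed. The mean rose from 130.2 ± 7.84 (SD, n = 3) to 1196 ± 349 CPM (SD, n = 4), a 9.18-fold change (95% confidence interval 6.52 to 12.9, log2 3.20, SE 0.23, edgeR quasi-likelihood FDR 1.37e-06). On this scale Bnip3 was at percentile 99.1 of the log2 fold changes of all genes. Against KPC IL6KO mice, at 148 ± 21.7 CPM (SD, n = 4), KPC was 8.10-fold higher (5.99 to 10.96, edgeR FDR 9.31e-07). Of the 2265 exonic bases of Bnip3, 504 (22.3%) lie opposite exons of the antisense gene Gm45507, and since the strand setting of the counting was not given, reads from this stretch may belong to either gene.

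Bnip3l, the close relative of Bnip3 that is also known for clearing mitochondria from maturing red blood cells, lies at chr14:66985239-67008877 (minus strand). Its level was 45.4, 49.99 and 54.9 CPM in no tumor, 207, 123, 211 and 142 CPM in KPC, and 47.3, 50.9, 55.2 and 55.8 CPM in KPC IL6KO libraries. The lowest KPC library was above the highest of the other groups. The rise was 3.41-fold against no tumor (2.56 to 4.54, log2 1.77, SE 0.19, edgeR FDR 1.24e-05) and 3.26-fold against KPC IL6KO (2.52 to 4.22, edgeR FDR 6.76e-06). Red cell markers were also high in KPC libraries: Alas2 and Slc4a1, the 2 genes with values of the 7 on the erythroid list, summed to 6.15 to 19.99 CPM in KPC, 1.95 to 2.61 in no tumor and 3.87 to 6.60 in KPC IL6KO libraries, whose range overlapped with KPC but not with no tumor, and their part in the Bnip3l result was not tested. A processed pseudogene, Bnip3l-ps, is annotated and could share reads with Bnip3l.

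Fundc1, a receptor of hypoxia-induced mitophagy, lies at chrX:17556564-17572325 (minus strand) and went the other way. Its level was 17.5, 17.0 and 17.3 CPM in no tumor, 10.3, 13.2, 10.3 and 10.1 CPM in KPC, and 17.3, 18.1, 17.2 and 18.3 CPM in KPC IL6KO libraries. All 4 KPC libraries were below the other 7. The level in KPC was 1.57-fold lower than in no tumor (log2 -0.65, SE 0.11, edgeR FDR 0.00034) and 1.61-fold lower than in KPC IL6KO mice (log2 -0.69, SE 0.10, edgeR FDR 0.000129). The confidence interval of the ratio to no tumor, 0.538 to 0.756, includes changes smaller than 1.5-fold.

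Pink1, the kinase that marks depolarized mitochondria for Parkin, lies at chr4:138313409-138326307 (minus strand) and was the most abundant of the 10 genes per length in no tumor muscle. It measured 1099.6, 969.8 and 1034 CPM in no tumor, 1380.4, 1462, 1618 and 1365 CPM in KPC, and 1037, 1201, 1196 and 1127 CPM in KPC IL6KO libraries. The KPC libraries were again the highest 4. The difference passed the FDR but not the fold of 1.5: KPC was 1.41-fold higher than no tumor (1.20 to 1.66, log2 0.49, edgeR FDR 0.00166) and 1.28-fold higher than KPC IL6KO (1.10 to 1.48, log2 0.35, edgeR FDR 0.00753). With upper quartile scaling the log2 values were 0.17 and 0.04, with FDRs of 0.185 and 0.727.

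Among the fission genes, Mief1, which encodes an outer membrane adaptor for the fission GTPase, lies at chr15:80234018-80253371 (plus strand) and was called. Its level was 23.4, 23.3 and 22.2 CPM in no tumor, 50.5, 33.9, 42.9 and 39.4 CPM in KPC, and 24.3, 23.8, 24.2 and 25.6 CPM in KPC IL6KO libraries. No KPC library reached down to the other groups. The rise was 1.82-fold against no tumor (1.503 to 2.19, log2 0.86, SE 0.12, edgeR FDR 9.95e-05) and 1.70-fold against KPC IL6KO (1.43 to 2.02, log2 0.77, edgeR FDR 0.000107). Mief1 was not called with upper quartile scaling, where its log2 fold changes were 0.52 and 0.45.

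Fis1, which encodes a small tail-anchored adaptor of the outer membrane, measured 94.8, 93.9 and 89.7 CPM in no tumor, 123, 117, 176 and 115 CPM in KPC, and 92.1, 97.0, 93.1 and 93.1 CPM in KPC IL6KO libraries. KPC library 3 stood well above the other KPC libraries, but those also exceeded every library of the other groups. The ratio of KPC to no tumor was 1.43 (1.15 to 1.77, log2 0.51, edgeR FDR 0.00698) and that to KPC IL6KO was 1.41 (1.16 to 1.72, log2 0.50, edgeR FDR 0.00499), both under the fold of 1.5, and without KPC library 3 the log2 value against no tumor was 0.35 (edgeR FDR 0.00169). The FDR against no tumor was lost with upper quartile scaling (0.220) and with total count scaling (0.0679). Dnm1l, the fission GTPase itself, had no such separation, at 45.9 ± 4.30 CPM (SD, n = 3) in no tumor, 43.2 ± 4.93 (n = 4) in KPC and 39.6 ± 5.45 (n = 4) in KPC IL6KO mice. Its KPC to no tumor ratio had a confidence interval of 0.767 to 1.15 (edgeR FDR 0.568). With upper quartile scaling the log2 value against no tumor was -0.42 instead of -0.09, and the FDR was passed (0.0120) but not the fold of 1.5.

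The fusion genes were not called, and their intervals were narrow. Mfn1 measured 199.6 ± 11.7 CPM (SD, n = 3) in no tumor, 227 ± 17.9 (n = 4) in KPC and 204 ± 17.4 (n = 4) in KPC IL6KO mice, with a KPC to no tumor ratio between 0.968 and 1.33 (edgeR FDR 0.140). Mfn2, the mitofusin that also tethers mitochondria to the endoplasmic reticulum, measured 672 ± 30.1, 735 ± 117 and 696 ± 32.1 CPM in the same order, with a ratio between 0.908 and 1.32 (edgeR FDR 0.364). Opa1 measured 113 ± 8.40, 105 ± 5.29 and 111 ± 4.38 CPM, with a ratio between 0.803 and 1.06 (edgeR FDR 0.264). With upper quartile scaling Opa1 passed the FDR, though not the fold, in both comparisons, at a log2 value of -0.45 against no tumor (edgeR FDR 0.000893, -0.12 as fitted) and of -0.40 against KPC IL6KO (edgeR FDR 0.00110, -0.09 as fitted). As fitted, none of the 3 intervals reaches a 1.5-fold change. The sign of the small differences of both mitofusins depended on scaling, since the log2 values of Mfn1 and Mfn2 against no tumor were 0.18 and 0.13 as fitted and -0.14 and -0.20 with upper quartile scaling.

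The comparison of KPC with KPC IL6KO mice sets tumors of 1 clone with a null guide RNA against tumors of 1 clone with its Il6 gene edited. Loss of IL-6 from the tumor cells therefore cannot be told apart from other differences between the clones. The study also reports larger tumors in KPC than in KPC IL6KO mice. Again 3 of 10 genes were called up and 1 down, the 4 genes named above, against 26.4% and 27.3% of all genes. The FDR alone was passed by 6 of 10, against 68.0% of all genes, and 6 of 10 did not overlap, against 62%. This comparison shares its KPC libraries with the one against no tumor mice, so the 2 sets of values are given side by side and do not support each other.

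In KPC IL6KO against no tumor quadriceps, 0 of 10 genes were called by edgeR's quasi-likelihood test and 0 had an unadjusted p under 0.05, and DESeq2 and edgeR's likelihood ratio test also called 0 of the 10. The share of all genes called by the quasi-likelihood test was 0%, although 887 genes had an unadjusted p under 0.05. Both other tests called only a small share of all genes, with counts given at the end. The log2 fold changes of the 10 genes lay between -0.22 (Dnm1l) and 0.18 (Bnip3), and the smallest FDR was 0.902. For Bnip3 the confidence interval of the ratio was 0.836 to 1.54, so a rise of up to that bound is compatible with these libraries. Mief1 was the only one of the 10 whose groups did not overlap, at 1.07-fold, against 15.5% of all genes.

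**Figure D2:**
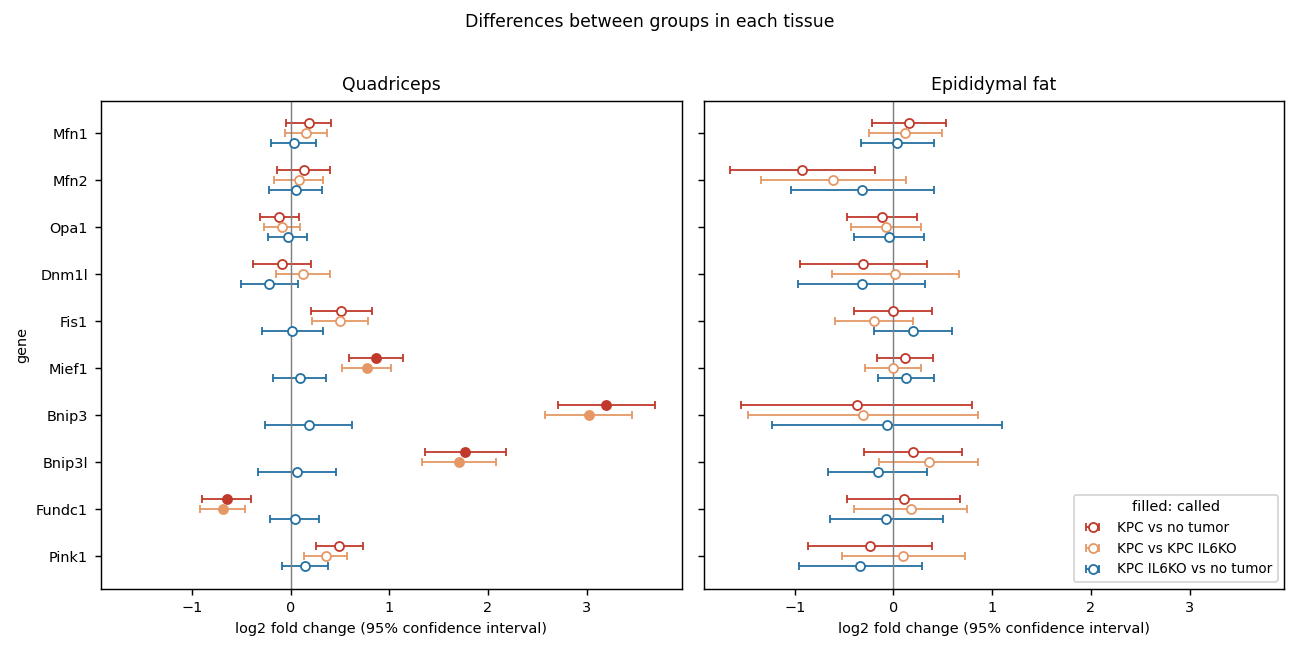
Log2 fold change of each of the 10 genes (x axis) with its 95% confidence interval in quadriceps (left) and epididymal fat (right) for the 3 comparisons, filled where the gene was called. Bnip3, Bnip3l, Mief1 and Fundc1 are filled in quadriceps in both comparisons of KPC mice, and no point is filled in fat or for KPC IL6KO against no tumor mice.

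The order of the genes was compared on a scale per length, as FPKM with exon lengths from the annotation. In no tumor quadriceps Pink1 stood first at 387 ± 24.3 FPKM (SD, n = 3), followed by Mfn2 at 129 ± 5.80, Bnip3 at 57.5 ± 3.46, Fis1 at 54.1 ± 1.59 and Mfn1 at 32.6 ± 1.91. Opa1 at 14.4 ± 1.07 and Bnip3l at 12.98 ± 1.22 were the only neighbours whose libraries overlapped, and Dnm1l (8.83 ± 0.826), Fundc1 (7.33 ± 0.111) and Mief1 (2.83 ± 0.0818) came last. In KPC muscle Bnip3, at 528 ± 154 FPKM (SD, n = 4), overlapped with Pink1 at 545 ± 43.2, Bnip3l at 44.2 ± 11.6 overlapped with Mfn1 at 37.1 ± 2.94, and Mief1 at 5.14 ± 0.857 overlapped with Fundc1 at 4.67 ± 0.631.

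Within each library the receptors therefore changed their proportions. The ratio of Bnip3 to Bnip3l in FPKM was 4.44 ± 0.246 (SD, n = 3) in no tumor, 12.1 ± 2.34 (n = 4) in KPC and 4.79 ± 0.400 (n = 4) in KPC IL6KO mice. The ratio of Bnip3 to Fundc1 was 7.85 ± 0.473, 116 ± 42.4 and 8.65 ± 1.31 in the same order, and that of Pink1 to Bnip3 was 6.75 ± 0.578, 1.10 ± 0.334 and 6.64 ± 0.967. The ratio of the mitofusins, Mfn2 to Mfn1, was 3.97 ± 0.359, 3.83 ± 0.615 and 4.03 ± 0.159, and its ranges overlapped in all 3 groups.

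The other genes of these pathways were taken from lists and are given for KPC against no tumor quadriceps, with the shares of 26.7% up and 29.0% down as background. The lists were chosen with earlier results of these data known, so their counts are a description only. Of 5 other fusion genes with values, 2 were called up and 0 down (median log2 0.41). These were the inner membrane proteases Afg3l2 (log2 0.84) and Yme1l1 (0.59), which process or maintain Opa1 and other inner membrane proteins, and neither was called with upper quartile scaling. Of 7 other fission genes, 0 were called up and 3 down (median -0.50). Gdap1, an outer membrane protein mutated in a hereditary neuropathy, fell from 22.9 ± 3.82 to 1.29 ± 0.303 CPM (log2 -4.15, SE 0.31, edgeR FDR 1.74e-06) and measured 22.1 ± 7.69 CPM in KPC IL6KO mice. Mtfp1, an inner membrane protein that promotes fission, fell from 54.1 ± 4.93 to 10.3 ± 4.66 CPM (log2 -2.39), and Mtfr1 fell by 0.82 on the log2 scale. The fission list thus held both the called rise of Mief1 and these called decreases.

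Of 6 other mitophagy receptors, Phb2, an inner membrane receptor, was called up (log2 0.72, not with upper quartile scaling) and Nipsnap1 was called down at a level under 1 CPM (log2 -0.89), with a list median of -0.12. Of 13 genes of the PINK1 and Parkin pathway, 5 were called up and 1 down (median 0.34). The ligase Park2 rose most (log2 1.504, from 6.71 ± 0.206 to 19.1 ± 6.76 CPM), followed by Usp30 (1.20), Pgam5 (0.99) and Usp8 (0.87, not called with upper quartile scaling), and Rhot2, a motility GTPase and Parkin substrate, fell by 0.92. The risen genes do not act in 1 direction, since Usp30 removes ubiquitin from mitochondria and opposes Parkin, whereas Usp8 acts on Parkin itself.

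All 5 cargo adaptors, which link ubiquitin-coated cargo to LC3 or activate that link, were called up (median 1.76). Sqstm1, which encodes p62, rose from 504 ± 82.9 CPM (SD, n = 3) to 3189 ± 491 CPM (n = 4), with 704 ± 151 CPM in KPC IL6KO mice (n = 4), and its log2 fold change against no tumor was 2.66 (SE 0.20, edgeR FDR 1.78e-06). Tax1bp1 (2.03), Tbk1 (1.76) and Nbr1 (1.71) were next. All 11 FoxO target genes of muscle atrophy were called up as well (median 2.99), led by the ubiquitin ligases Trim63 (5.04) and Fbxo32 (5.02), the cell cycle inhibitor Cdkn1a (4.70) and Sesn1 (4.24).

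Of 10 transcription regulators known to act on the 10 genes or on mitochondrial content, Foxo1 (2.82), Foxo3 (2.07) and Tfeb (1.31) were called up and the coactivator Ppargc1b (-2.87) and the receptor Esrra (-1.68) down, with a median of 0.39. Of 12 hypoxia response genes, 3 were called up and 4 down (median -0.33). Egln3 (4.27), Adm (1.93) and Slc2a1 (1.33) rose, whereas Ldha (-1.52), P4ha1 (-1.09), Pgk1 (-0.70) and Pdk1 (-0.59), which serve glycolysis, collagen hydroxylation and the shunting of pyruvate, fell. Of 15 genes of mitochondrial content, 1 was called up, the import receptor Tomm20 (0.92), and 3 down, Ndufs1 (-0.84), Sdhb (-0.79) and Uqcrc1 (-0.66), which encode subunits of respiratory complexes, and the median was -0.37.

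**Figure D3:**
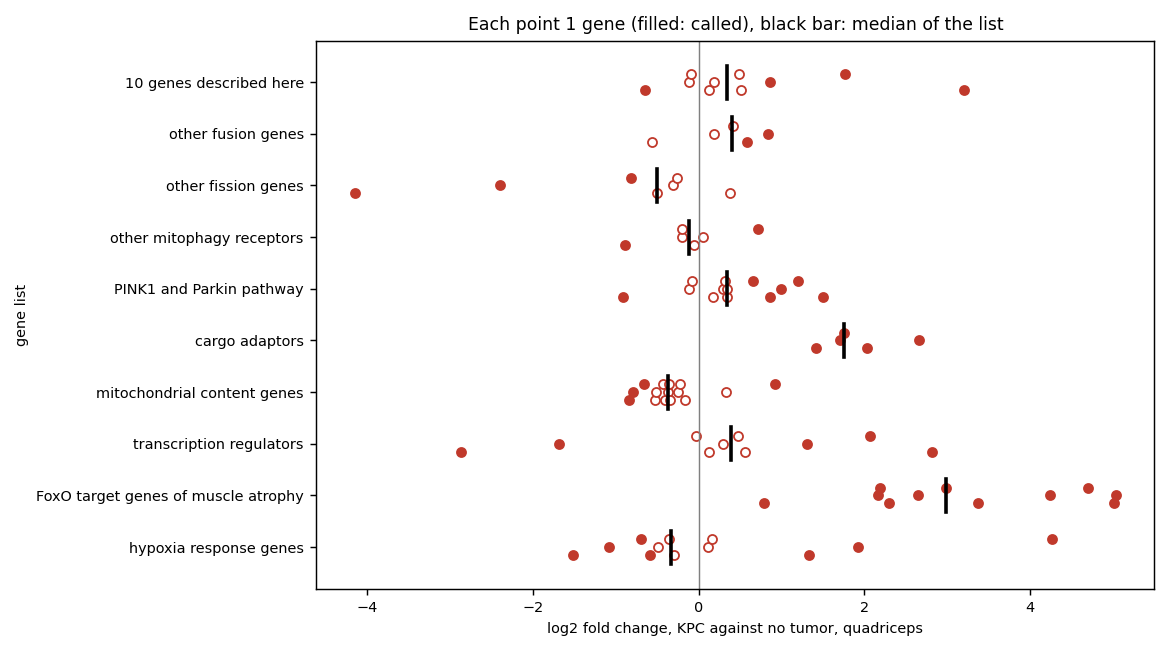
Log2 fold change of KPC against no tumor quadriceps (x axis) for the 10 genes and for each list of other genes (y axis), 1 point per gene, filled where called, with the list median as a black bar. All 5 cargo adaptors and all 11 FoxO target genes are filled on the right, and the other lists hold points on both sides of 0.

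Against KPC IL6KO mice, 26.4% of all genes were called up and 27.3% down, which is the background for the lists. The counts called up and down were 2 and 1 of 5 other fusion genes and 0 and 3 of 7 other fission genes. They were 1 and 1 of 6 other receptors, and 5 and 1 of 13 PINK1 and Parkin genes. The cargo adaptors were called up in 5 of 5 (median 1.76) and the FoxO targets in 11 of 11 (median 2.78), while the counts were 3 and 2 of 10 regulators, 1 and 4 of 15 content genes and 3 and 5 of 12 hypoxia genes. In KPC IL6KO against no tumor mice, edgeR's quasi-likelihood test called 0 genes of every list, with medians between -0.05 and 0.20. The largest value there was that of Fbxo32, at 618 ± 344 CPM against 183 ± 40.2 CPM (log2 1.76, unadjusted p = 0.000535, edgeR FDR 0.228), which DESeq2 (FDR 0.000476) and edgeR's likelihood ratio test (FDR 0.00253) did call.

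Markers of other cells were compared in the same quadriceps libraries. The 4 fibroblast markers summed to 158 to 261 CPM in KPC, 900.1 to 989.7 in no tumor and 502 to 764 in KPC IL6KO libraries. The 3 neutrophil markers with values, of 5 listed, summed to 3.93 to 20.6, 0.0512 to 0.294 and 1.14 to 2.54 CPM. Neither sum overlapped between any of the 3 groups, KPC IL6KO and no tumor included. In the no tumor libraries 1 to 3 of the neutrophil markers had at most 3 counts. The part of these cells in the results was not tested.

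The genes most like Bnip3 and Fundc1 were looked up by Pearson's r of log2 CPM over the 11 quadriceps libraries, a description that mainly reflects the separation of the KPC libraries. For Bnip3 they were Tax1bp1 (0.999), Fam134b (0.998), Mphosph10 (0.998), Usp14 (0.997) and Rhbdf2 (0.997), among 1627 genes over 0.95. For Fundc1 they were Pik3cd, 9330159F19Rik, Cdkn2b and Gatc (each 0.995) and Elmo2 (0.994), among 850 genes over 0.95.

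In epididymal fat none of the 10 genes was called in any comparison, and in each of the 3 comparisons the groups overlapped for all 10 genes. Between KPC and no tumor mice edgeR's quasi-likelihood test called 0 of 10 (0% of all genes), with 1 gene, Mfn2, at an unadjusted p under 0.05, and 0 of 10 did not overlap, against 10.9% of all genes. Between KPC IL6KO and no tumor mice 0 of 10 were called (0% of all genes) with 0 at an unadjusted p under 0.05, against 2.01% of all genes whose groups did not overlap. Between KPC and KPC IL6KO mice the counts were 0 and 0 of 10, with 0% of all genes called and 4.33% not overlapping. DESeq2 and edgeR's likelihood ratio test also called 0 of the 10 in each of the 3 comparisons. Both called only a small share of the 16962 genes in fat, with counts given at the end. Their 0 of 10 therefore does not set these genes apart from the whole table.

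The fat libraries of 1 group differed widely, and the samples held other tissue. The 6 adipocyte markers summed to 1039 to 19166 CPM in no tumor, 1681 to 8779 in KPC and 2820 to 11348 in KPC IL6KO libraries. All 8 markers of the epididymis, the duct that lies against this fat pad, were also present, at 13564 to 80710, 38675 to 62257 and 1472 to 87984 CPM in the same order. Gpx5, a secreted epididymal protein, was at 21347 to 54957 CPM in no tumor libraries 5 and 7, all 4 KPC libraries and KPC IL6KO library 6, and at 4.69 to 85.8 CPM in the other 5.

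**Figure D4:**
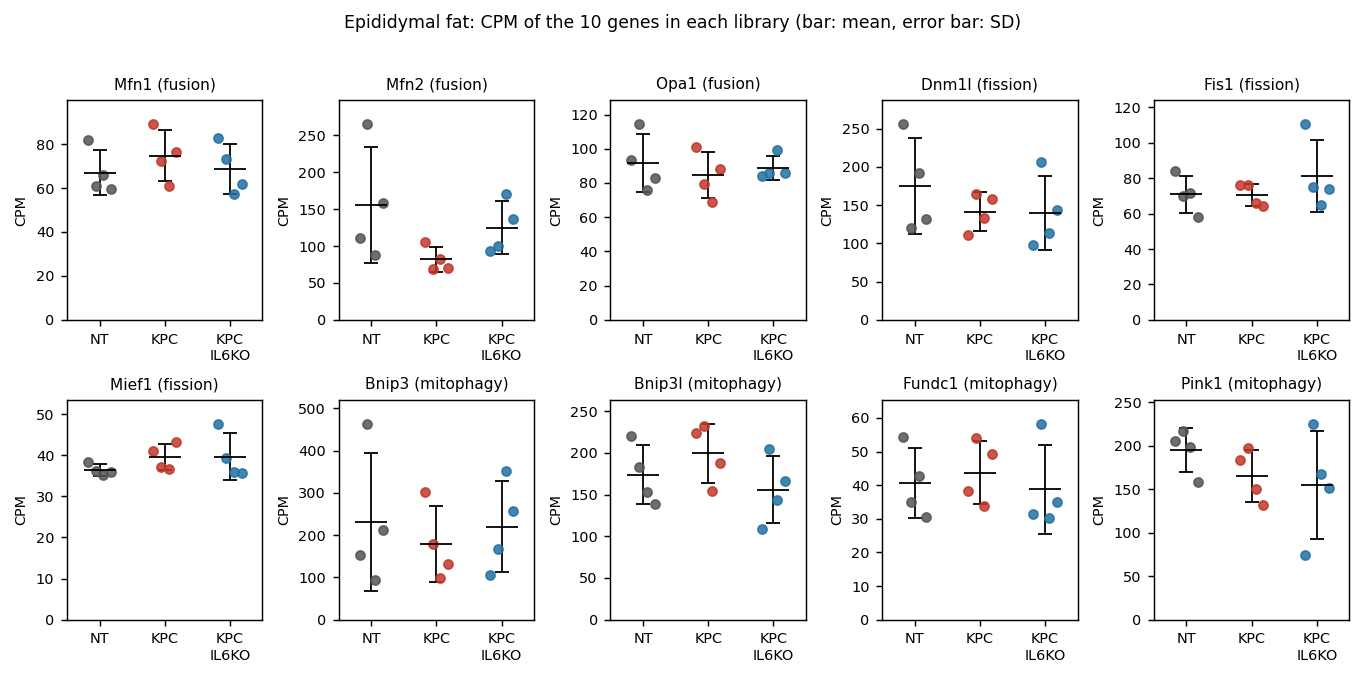
CPM of each of the 10 genes (y axis, from 0) in the epididymal fat libraries of no tumor (NT), KPC and KPC IL6KO mice, n = 4 each, 1 point per library, with the mean as a bar and the SD as the error bar. The 3 groups overlap for every gene, and Bnip3 and Mfn2 have the widest spread in the no tumor group.

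Bnip3 measured 154, 464, 93.5 and 212 CPM in the no tumor fat libraries, 303, 180.0, 98.2 and 131 in KPC, and 106, 166, 352 and 257 in KPC IL6KO. The highest library of the 12 was a no tumor library and the lowest was one too. The log2 difference of KPC from no tumor was -0.37 (SE 0.53, ratio 0.343 to 1.73, edgeR FDR 0.784), and it was 0.22 without no tumor library 6, 0.19 with Gpx5 as a covariate and 0.52 with Adipoq, an adipocyte hormone, as a covariate, the last chosen after seeing the data. The direction is therefore not fixed by these libraries.

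Mfn2 measured 111, 266, 88.0 and 158 CPM in no tumor, 106, 69.6, 82.5 and 70.5 in KPC, and 92.8, 99.7, 171 and 137 in KPC IL6KO fat. The KPC values lay in the lower part of the range, and KPC library 5 was above no tumor library 7. The log2 difference of KPC from no tumor was -0.92 (SE 0.33, ratio 0.317 to 0.877, unadjusted p = 0.0182, edgeR FDR 0.325), which does not pass. It was -0.54 without no tumor library 6, -0.52 with Gpx5 and -0.35 with Adipoq as a covariate.

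The other called genes of muscle were measured in fat at a lower depth, with 26306377 to 35905531 reads in the KPC fat libraries against 54968680 to 74907810 in the KPC quadriceps libraries. The spread between libraries of a group was also larger in fat, with an edgeR common dispersion of 0.403 against 0.0517 in quadriceps. Bnip3l was at 220.0, 183, 154 and 139 CPM in no tumor, 224, 232, 154 and 187 in KPC, and 108, 205, 144 and 166 in KPC IL6KO libraries, with a KPC to no tumor ratio of 0.810 to 1.62. Mief1 was at 38.5, 36.1, 35.1 and 35.8 CPM, 40.9, 37.2, 36.7 and 43.3 CPM, and 47.7, 39.4, 36.04 and 35.6 CPM, with a ratio of 0.893 to 1.32. Fundc1 was at 54.3, 35.2, 42.8 and 30.7 CPM, 38.1, 53.9, 33.8 and 49.1 CPM, and 31.4, 58.3, 30.3 and 35.1 CPM, with a ratio of 0.724 to 1.59. The interval of Mief1 excludes a change of 1.5-fold, and those of Bnip3l and Fundc1 do not.

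The remaining genes had mean levels in fat between 67.1 CPM (Mfn1, no tumor) and 195 CPM (Pink1, no tumor), and their log2 differences of KPC from no tumor were 0.16 for Mfn1, -0.12 for Opa1, -0.30 for Dnm1l, 0.00 for Fis1 and -0.24 for Pink1. Over all 10 genes the log2 differences of KPC IL6KO from no tumor fat ranged from -0.34 (Pink1) to 0.19 (Fis1), and those of KPC from KPC IL6KO fat from -0.61 (Mfn2) to 0.36 (Bnip3l), with smallest FDRs of 0.689 and 0.880, respectively. The latter comparison sets 4 KPC libraries with high Gpx5 against 1 such library of 4, and with Gpx5 as a covariate its values were -0.07 for Mfn2 and 0.13 for Bnip3l, and ranged from -0.44 (Dnm1l) to 0.42 (Bnip3), whose value was -0.31 without the covariate. The lists of other pathway genes also had 0 called genes in each fat comparison by edgeR's quasi-likelihood test. Per length, the order in no tumor fat was led by Bnip3 at 102 ± 71.9 FPKM (SD, n = 4) and Pink1 at 72.97 ± 9.55 FPKM, which overlapped, and closed by Mief1 at 4.49 ± 0.181 FPKM, which did not overlap with its neighbour Mfn1 at 10.97 ± 1.67 FPKM.

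The fat libraries were also ordered by their marker sums and by each of the 10 genes, and the 5 highest libraries of each order were compared, as a description. The 5 with the highest adipocyte marker sums, no tumor 6 and 8, KPC 5 and KPC IL6KO 7 and 8, were also the 5 highest for Bnip3, and 4 of them were among the 5 highest for Mfn2. The other 8 genes shared 0 to 3 libraries, and 4 or 5 were shared by 2 of 10 genes against 13.9% of all genes. The 5 with the highest epididymis marker sums, no tumor 5 and 7, KPC 6 and 7 and KPC IL6KO 6, shared 4 libraries with the 5 highest for Dnm1l, 4 for Fundc1 and 4 for Pink1, 0 for Bnip3 and 1 to 3 for the other 6, and 4 or 5 were shared by 3 of 10 genes against 15.7% of all genes. With Gpx5 as a covariate the log2 difference of KPC from no tumor was -0.57 for Dnm1l, -0.39 for Pink1 and -0.17 for Fundc1, whose value without it was 0.10. With the epididymis genes left out these were -0.26, -0.20 and 0.14, and none of the 10 genes was called in fat under either alternative or with the Adipoq covariate. Marker sums of other cells were not tested against the 10 genes. Macrophage sums were higher in KPC than no tumor libraries (839 to 1281 against 189 to 772 CPM). So were epithelial (1268 to 2683 against 422 to 1142) and neutrophil sums (10.8 to 38.2 against 0.232 to 3.74). Erythroid sums were higher too (29.7 to 57.7 against 8.35 to 24.9), and muscle sums were lower (2.16 to 5.16 against 8.55 to 266). The endothelial, fibroblast, mesothelium, pancreatic acinar and brown adipocyte sums overlapped.

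**Figure D5:**
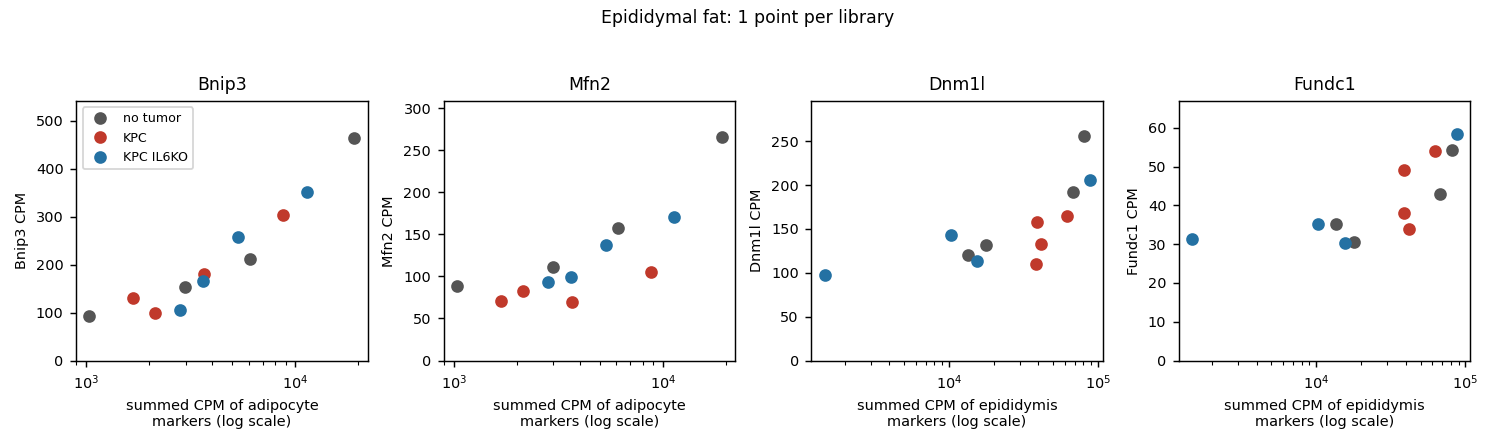
CPM of Bnip3 and Mfn2 against the summed CPM of 6 adipocyte markers, and of Dnm1l and Fundc1 against that of 8 epididymis markers (x axes, log scale), in the 12 epididymal fat libraries, colored by group. The libraries with the highest adipocyte sums, up to 19166 CPM, are those with the highest Bnip3, and libraries of different groups lie between each other.

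Whether the tumor effect differed between tissues was tested in 1 fit of all 23 libraries over 12599 genes in both tables. The fit treats the libraries as independent, so its errors do not allow for mice that may have given both tissues. For KPC against no tumor, 4 of the 10 genes differed between quadriceps and fat, against 36.9% of all genes. The log2 effect was larger in quadriceps by 3.47 for Bnip3 (SE 0.64, edgeR FDR 0.000383), by 1.45 for Bnip3l (SE 0.28, edgeR FDR 0.000494) and by 0.63 for Mief1 (SE 0.17, edgeR FDR 0.00565), and it was lower by 0.86 for Fundc1 (log2 -0.86, SE 0.28, edgeR FDR 0.0188). Mfn2, with 0.94 (unadjusted p = 0.0286, edgeR FDR 0.0680), did not pass, nor did the other 5 genes. The call of Mief1 was lost with total count scaling (0.47) and without quadriceps KPC library 1 (0.52).

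For KPC IL6KO against no tumor, 0 of 10 genes differed between the tissues by edgeR's quasi-likelihood test (0% of all genes), 0 had an unadjusted p under 0.05, and DESeq2 and edgeR's likelihood ratio test also called 0 of them. Both of these tests called only a small share of all genes, with counts given at the end. The log2 differences of the 10 genes lay between -0.15 (Fis1) and 0.51 (Pink1), with a smallest FDR of 0.716. By the study's methods the 2 tissues differed in library kit and in RNA input. This leaves the comparison within each tissue intact but cannot be told apart from tissue in the levels themselves.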

How the data were processed

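RNA of quadriceps and of epididymal fat was sequenced, 1 library per mouse in each tissue, and each library was assigned to its group from its title. The authors deposited 1 table of raw counts per tissue, the number of uniquely mapped reads per gene, after FastQC, alignment with STAR to mm10 and counting with featureCounts 1.5.1 (Subread), and the submitters' processing notes also name edgeR 3.12.1. Genes with few counts were already absent under a rule not given in the sources used here, and reads of 1 no tumor muscle sample removed by the study were not analysed here. The library kit is named differently in the study's methods and in the labels. The library was strand-specific, but the strand setting of the counting was not given.

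The main test used edgeR 4.0.16, which builds on limma 3.58.1, under R 4.3.3. DESeq2 1.42.0 served as an alternative, and matplotlib 3.10.9 under Python 3.11.15 drew the figures. After TMM normalization and filterByExpr, which removed 0 genes, all groups from 1 tissue entered a single quasi-likelihood fit without a replicate term, and p-values were adjusted by Benjamini-Hochberg over all genes of the table. Genes with an FDR of at most 0.05 and a fold change of at least 1.5 were called. Which of edgeR's tests the study ran is not given in the sources used here. CPM uses the TMM-normalized library size, and FPKM divides it by the exon length of the GRCm38 (mm10) annotation, which is also the source of gene positions. Promoter windows came from RefSeq. Intervals are 95% confidence intervals of the fit.

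The 10 genes and the gene lists were chosen with earlier results of these data known. All 10 are reported in each comparison, with every library shown for those called. Of the other lists, at most the 4 called genes with the largest change per list and direction are named. The 5 genes most like the largest riser and the largest faller are given. Replicate numbers mark different mice within a tissue and were not used as pairs. No pair of libraries agreed within sampling noise (chi-square per degree of freedom of at least 28.9). The pipeline was tested on simulated data. Alternatives were other tests, normalizations, filters and sample sets, a replicate block, each library left out, and in fat Gpx5 or Adipoq as a covariate and the epididymis genes left out, the Adipoq covariate being chosen after seeing the data.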

Additional observations from a re-analysis of the deposited data

Results flagged for a closer look

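In quadriceps, a single KPC library stood apart from the others for Fis1, and a different one for Fundc1. Fis1 was at 176 CPM in KPC library 3, with the next KPC library at 123 CPM, and Fundc1 was at 13.2 CPM in KPC library 2, with the next at 10.3 CPM. In fat, Opa1 was at 99.0 CPM in KPC IL6KO library 7, with the next at 86.1 CPM, and Fundc1 was at 58.3 CPM in KPC IL6KO library 6, the library with the highest epididymis marker sum, with the next at 35.1 CPM. These gaps are large relative to the range of the group for 4 of 50 groups of 4 libraries, and chance alone gives about 1 in 20. Without the 2 quadriceps libraries neither gene changed its side of the call threshold.

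The effect of KPC tumors differed between quadriceps and fat for 4 of the 10 genes, against 36.9% of all genes. The log2 differences were 3.47 for Bnip3, 1.45 for Bnip3l, 0.63 for Mief1 and -0.86 for Fundc1, each by the interaction term of edgeR's quasi-likelihood fit over 23 libraries. The fat libraries varied in adipocyte and epididymis content, and whether that content bears on the differences was not tested in this fit.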

How the results depend on the processing

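The numbers of the 10 genes called were recomputed under 21 alternatives in quadriceps, 25 in fat and 28 for the difference between tissues. In quadriceps the count called up was 2 to 3 and the count called down 1, in both comparisons of KPC mice. The difference between tissues in KPC mice was called for 3 to 5 genes, and the other counts were 0 under every alternative. Of 1940 alternative values of the 80 log2 differences, 1823 kept direction and side of the threshold, 107 changed sign while called in neither, and 0 were called with the opposite sign. A call was lost in 4, all of Mief1: 0.52 and 0.45 with upper quartile scaling in quadriceps, and 0.47 with total count scaling and 0.52 without quadriceps KPC library 1 between tissues. A call was gained in 6 between tissues: Mfn2 with DESeq2 (1.02), RLE scaling (1.02) and without fat no tumor 5 (1.09), no tumor 7 (1.13) or KPC 5 (1.08), and Pink1 without fat KPC IL6KO 5 (0.61). The cause was not tested. Bnip3 against no tumor quadriceps ranged from 2.86 to 3.34, Bnip3l from 1.43 to 1.90 and Fundc1 from -0.97 to -0.61. Of 2457 alternative values of other named genes, 2361 kept direction and side and 41 lost their call.

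Over the whole tables the tests differed. Where edgeR's quasi-likelihood test called 0 genes, DESeq2 called 364 up and 221 down in KPC fat, 282 and 4 in KPC IL6KO fat, 19 and 106 for KPC against KPC IL6KO fat, and 30 and 66 in KPC IL6KO quadriceps. The likelihood ratio test called 268 and 145, 209 and 0, 7 and 59, and 25 and 70, and for KPC IL6KO between tissues the 2 tests called 46 and 39 genes. In KPC fat, fitting only the 2 groups called 166 and 8, the Gpx5 covariate 117 and 10, and the newer quasi-likelihood fit 15 and 1. None of these called any of the 10 genes.

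Same-numbered libraries of different groups did not all deviate together, with correlations of -0.15 to 0.26 over 10 pairs in quadriceps and -0.54 to 0.65 over 12 pairs in fat, so the numbers give no pairing. With a replicate block, Bnip3 was 3.15 against no tumor quadriceps, 3342 and 3701 genes were called up and down there, and no call of the 10 genes changed. With no filter the genes tested were the same as with the filter.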
